A study of Mus musculus with 36 samples.

Results

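The Btg and Tob genes, a family of antiproliferative genes, were followed in cultured mouse cortical neurons (CNs) stimulated with BDNF or KCl. The 5 members are Btg1, Btg2, Btg3, Tob1 and Tob2, taken by name from a table of 26709 genes. The family was chosen by a readout of these data, namely that Btg2 moved in opposite directions under the 2 stimuli at 1 h, so all values of the members' RNA at 1 h are given as a description without a test. The 6 h and 10 h RNA comparisons and all of the chromatin accessibility data did not enter that choice and were tested. Btg4, a further member of the family, had 3 reads in all over the 18 RNA libraries and is not followed further. All 5 members passed the minimum of a mean normalised count of 10, and they were tested among 16209 genes.

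CNs came from CD-1 embryos at embryonic day 15, with the cortices of all embryos pooled, and were grown for 7 days in vitro. Activity was silenced for 2 h with 100 µM AP-5, which blocks NMDA receptors, and 1 µM TTX, which blocks sodium channels. One set then received BDNF at 10 ng/ml, a secreted neurotrophin that signals through the TrkB receptor, and another set received KCl at 55 mM, which depolarises the membrane. Both were collected after 1, 6 or 10 h, while unstimulated controls spent 3, 8 or 12 h in AP-5 and TTX. RNA-seq and ATAC-seq each had 2 libraries in each of 9 groups, and every comparison with controls used the same 6 control libraries, so these comparisons are not independent of each other. The study calls the 2 libraries of a group biological replicates, and the sources used here do not say whether they came from separate dissections, so p-values measure the spread between these libraries.

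BTG and TOB proteins share an amino-terminal domain that binds the deadenylases Cnot7 and Cnot8 of the CCR4-NOT complex, the main enzyme complex that shortens poly(A) tails of mRNA. Tob1 and Tob2 carry in addition a long carboxy-terminal part that binds the cytoplasmic poly(A)-binding protein, and this part can bring the deadenylase to mRNA. The shorter Btg proteins lack this carboxy-terminal part. Btg2 is a classical immediate early gene and p53 target and marks neurogenic divisions in the embryonic cortex. Btg1 is its closest relative and is associated with quiescence.

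The upstream sequences of the members differed in the letters of stimulus-linked motifs, and those of the 4 members with the largest differences between stimuli at 1 h are shown because each lay, in part or whole, under an ATAC peak analysed below. Each is the 250 bases before the RefSeq start in GRCm38.p6, written on the strand of the gene. Capitals mark matches, on either strand, to TGACGTCA (the cAMP response element, CRE), TGACG (its half-site, also counted inside a CRE), TGANTCA (AP-1), GCGNGGGCG (EGR), CCAAT (the CCAAT box), TATAAA (the TATA box) and the CArG box, the last by name. The letters to search were chosen with the sequences already seen.

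Btg2 (chr1:134079156-134079405, minus strand): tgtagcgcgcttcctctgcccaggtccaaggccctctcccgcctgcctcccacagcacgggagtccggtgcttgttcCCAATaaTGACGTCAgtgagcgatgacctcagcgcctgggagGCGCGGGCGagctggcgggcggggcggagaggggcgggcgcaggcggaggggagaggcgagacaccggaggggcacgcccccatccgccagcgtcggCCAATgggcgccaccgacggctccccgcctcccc
Btg1 (chr10:96616751-96617000, plus strand): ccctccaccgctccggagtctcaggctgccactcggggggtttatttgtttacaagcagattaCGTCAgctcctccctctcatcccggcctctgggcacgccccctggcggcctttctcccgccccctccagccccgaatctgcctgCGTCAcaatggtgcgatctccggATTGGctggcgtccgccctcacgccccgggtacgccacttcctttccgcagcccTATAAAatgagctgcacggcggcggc
Tob1 (chr11:94211204-94211453, plus strand): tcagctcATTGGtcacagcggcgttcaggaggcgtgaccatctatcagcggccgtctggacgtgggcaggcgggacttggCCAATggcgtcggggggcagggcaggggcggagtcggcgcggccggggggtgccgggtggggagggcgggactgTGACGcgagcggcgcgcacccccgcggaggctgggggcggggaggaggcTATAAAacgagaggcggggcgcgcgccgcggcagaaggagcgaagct
Tob2 (chr15:81858327-81858576, minus strand): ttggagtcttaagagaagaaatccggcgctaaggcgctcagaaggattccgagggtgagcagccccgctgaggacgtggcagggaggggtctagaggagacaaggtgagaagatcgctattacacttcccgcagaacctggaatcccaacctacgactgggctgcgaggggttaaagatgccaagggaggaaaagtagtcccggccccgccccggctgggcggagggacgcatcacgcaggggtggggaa

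Of these, only the Btg2 window held a full CRE, from 166 to 159 bases before the start. A full CRE was found in 1.55% of 32851 RefSeq windows of the same length. The Btg2 window also held an EGR match 131 to 123 bases before the start, which 4.70% of windows had, and 2 CCAAT matches, which 33.8% of windows had at least once. Btg1 held 2 separate CRE half-sites, at 187 to 183 and 103 to 99 bases before the start, and Tob1 held 1 at 96 to 92 bases, against 17.8% of windows with at least 1. Btg1 and Tob1 each held a TATAAA match, from 26 and 47 bases before the start, which 12.4% of windows had. The Tob2 window held none of the 7 motifs, and the 2 RefSeq windows of Btg3 held CCAAT alone, 1 match each. AP-1 letters (6.75% of windows) and the CArG box (1.47%) occurred in no window of a member. The shares are over all windows and are not matched for the content of G and C. Its median was 52.4% over all windows, against 73.2% in the Btg2 window, 65.2% in Btg1, 73.6% in Tob1 and 60.4% in Tob2. A match is a run of letters and was not tested for binding.

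Levels differed widely within the family in silenced neurons. Per kilobase of annotated exon, Btg1 was highest at 334 ± 20.0 normalised counts (mean ± SD, n = 6 controls), Tob1 followed at 293 ± 29.3 and Btg2 at 251 ± 35.8, and Tob2 lay at 59.1 ± 4.34 and Btg3 at 15.3 ± 2.53. Exon lengths were taken from the GENCODE M21 annotation (5276, 2288, 2743, 6664 and 4014 bp in that order) and cover all isoforms, so a level per kilobase is understated where a long isoform is little used. Over the controls of 3 times no member was called between 6 h or 10 h and 1 h (limma, adjusted p below 0.1). None of the 5 had an unadjusted p under 0.05, and edgeR and DESeq2 called 0 of the 5. Across all genes limma called 0% at either time, with 164 and 181 genes at an unadjusted p under 0.05. With 2 libraries in each group this test cannot show that the controls of the 3 times are equal. For ATAC, edgeR called 0 peaks between the controls of 6 h and 1 h and 22 (0.039%) between those of 10 h and 1 h. At an unadjusted p under 0.05 there were 2600 and 4577 of 56383 peaks. The 6 controls were used as 1 group in both assays, following the study, which pooled them.

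**Figure D1:**
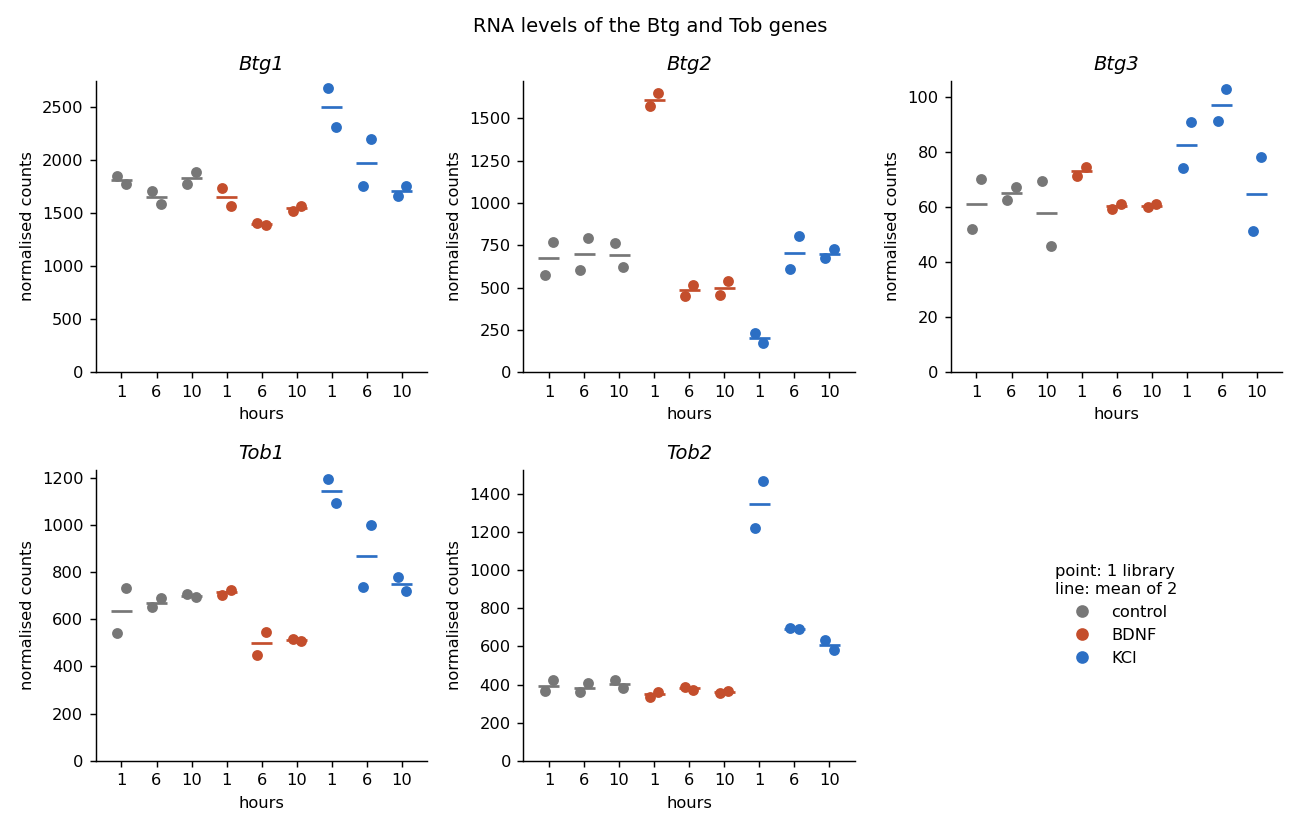
Normalised RNA counts (y axis, linear from 0) of each member in the 18 libraries, by hours (x axis) for controls (grey), BDNF (orange) and KCl (blue). Each point is 1 library and each line the mean of 2. Btg2 at 1 h lies above the controls with BDNF and below them with KCl, whereas Tob2 is above the controls with KCl at all 3 times.

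Btg2 had the widest gap between the 2 stimuli at 1 h of the 5 members. In the 6 controls it was at 576 normalised counts at the lowest, 692 at the median and 795 at the highest. With BDNF at 1 h the 2 libraries reached 1574 and 1648, above every control, and with KCl at 1 h they were at 233 and 174, below every control. These values chose the family. The log2 fold change, on the log2(normalised count + 1) scale, was 1.24 ± 0.14 (SE) with BDNF, a 2.36-fold rise of the mean level on that scale, and -1.75 ± 0.14 with KCl, so that the 2 stimuli stood 2.99 ± 0.17 apart. Summed oligodendrocyte lineage markers were likewise above all controls with BDNF and below them with KCl at 1 h (values with the other cell markers), and their part in the Btg2 values was not tested. Among the 16209 genes tested, 9 (0.0555%) had a log2 fold change of at least 1 with BDNF and at most -1 with KCl at 1 h, Btg2 included.

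After 1 h Btg2 took another course. With BDNF its libraries had 448 and 518 normalised counts (6 h) and 453 and 537 (10 h), all below the lowest control. Btg2 fell by 0.50 ± 0.14 at 6 h (limma, adjusted p = 0.00934) and by 0.46 ± 0.14 at 10 h (adjusted p = 0.0165) on the log2 scale. With KCl Btg2 had 611 and 802 in its 6 h libraries and 673 and 726 in those of 10 h, overlapping the controls, and the log2 fold change was 0.04 ± 0.14 at either time (limma, adjusted p = 0.828 and 0.845). BDNF libraries were below KCl libraries by 0.54 ± 0.17 at 6 h (limma, adjusted p = 0.0137) and 0.50 ± 0.17 at 10 h (adjusted p = 0.0273) on the log2 scale. Without library A of BDNF the fall was -0.40 at 6 h (adjusted p = 0.144) and -0.34 at 10 h (adjusted p = 0.209), and the direct differences at the 2 times then had adjusted p = 0.112 and 0.194. They also passed the threshold no longer without KCl library B (adjusted p = 0.189 at 6 h and 0.146 at 10 h). In the order of its 9 group means Btg2 had BDNF 1 h at the top and KCl 1 h at the bottom, BDNF 10 h and BDNF 6 h just above the bottom with overlapping libraries, and the 3 controls and KCl 6 h and 10 h between them, each overlapping its neighbour.

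Btg1, the close relative of Btg2, did not share its pattern at 1 h. In the controls it was at 1591 normalised counts at the lowest, 1776 at the median and 1886 at the highest. With KCl at 1 h the libraries were at 2683 and 2317, above every control, a log2 fold change of 0.50 ± 0.08, whereas with BDNF at 1 h they were at 1738 and 1565 (-0.09 ± 0.08) and overlapped the controls. At 6 h with BDNF both libraries, at 1412 and 1389.8, were below every control, and Btg1 fell by 0.33 ± 0.08 (limma, adjusted p = 0.00268). At 10 h, at 1522 and 1573, it fell by 0.19 ± 0.08 (limma, adjusted p = 0.0784). With KCl at 6 h the libraries stood apart, at 1755 and 2196, and the change of 0.16 ± 0.08 was called at an adjusted p = 0.0975 (limma), but its libraries overlapped the controls and without library B it was -0.01 (adjusted p = 0.965). With KCl at 10 h Btg1 was at 1661 and 1760.0 (-0.04 ± 0.08, limma adjusted p = 0.684). BDNF was below KCl by 0.49 ± 0.10 at 6 h (limma, adjusted p = 0.000282), and the difference at 10 h was -0.14 ± 0.10 (adjusted p = 0.265). The 10 h fall with BDNF no longer passed without any 1 of the 2 BDNF libraries, the 2 controls of 10 h or the 2 controls of 1 h (adjusted p from 0.103 to 0.310).

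Tob1, which couples the deadenylase to poly(A)-binding protein, moved in opposite directions under the 2 stimuli at 6 h. Controls ranged from 543 to 731 normalised counts with a median of 693. With BDNF Tob1 was at 704 and 724 at 1 h, inside that range (log2 fold change 0.10 ± 0.11), at 450.4 and 545 at 6 h and at 518 and 506 at 10 h. It fell by 0.43 ± 0.11 at 6 h (limma, adjusted p = 0.00428), where 1 BDNF library was just above the lowest control, and by 0.38 ± 0.11 at 10 h (adjusted p = 0.0111), where both were below all controls. With KCl it was at 1196.5 and 1094 at 1 h, above every control (0.78 ± 0.11), at 737 and 999 at 6 h, still above every control, and at 779.8 and 719.9 at 10 h. The rise at 6 h was 0.37 ± 0.11 (limma, adjusted p = 0.00645), and the value at 10 h was 0.17 ± 0.11 (adjusted p = 0.205). BDNF was below KCl by 0.79 ± 0.13 at 6 h (limma, adjusted p = 4.73e-05) and 0.55 ± 0.13 at 10 h (adjusted p = 0.00267). Each stimulus's change at 6 h rested on 1 library. Without BDNF library A the fall was -0.29 (adjusted p = 0.154), and without KCl library B the rise was 0.15 (adjusted p = 0.322). At 10 h the fall was -0.36 without BDNF library B (adjusted p = 0.106).

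Tob2, the second member with the part that binds poly(A)-binding protein, was the member most raised by KCl. Controls ranged from 359 to 425 normalised counts with a median of 396. With KCl Tob2 was at 1222 and 1470.2 at 1 h, at 699 and 689 at 6 h and at 634 and 584 at 10 h, so that all 6 KCl libraries lay above all controls and no 2 of the 3 KCl times overlapped. The log2 fold change was 1.77 ± 0.08 at 1 h as a description, and Tob2 rose by 0.82 ± 0.08 at 6 h (limma, adjusted p = 3.12e-08) and 0.63 ± 0.08 at 10 h (adjusted p = 2.36e-06). With BDNF its libraries had 336 and 360.2 normalised counts (1 h), 388 and 371 (6 h) and 357 and 366 (10 h). These were among or just below the controls, with log2 fold changes of -0.17 ± 0.08 at 1 h, -0.05 ± 0.08 at 6 h (limma, adjusted p = 0.677) and -0.12 ± 0.08 at 10 h (adjusted p = 0.287). BDNF was below KCl by 0.87 ± 0.10 at 6 h (limma, adjusted p = 4.33e-07) and 0.75 ± 0.10 at 10 h (adjusted p = 6.09e-06). The 4 called differences of Tob2 (KCl at 6 h and 10 h, and the 2 direct comparisons) kept direction and call without any single library.

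Btg3 was the member with fewest reads, 40 to 159 in a library. Controls ranged from 45.7 to 70.2 normalised counts with a median of 65.0. With KCl it was at 74.1 and 90.9 at 1 h (log2 fold change 0.43 ± 0.18), at 91.4 and 103 at 6 h and at 51.3 and 78.4 at 10 h. The first 4 of these libraries were above every control, and Btg3 rose by 0.67 ± 0.18 at 6 h (limma, adjusted p = 0.00272), while 10 h overlapped the controls (0.07 ± 0.18, adjusted p = 0.784). With BDNF it was at 71.5 and 74.8 at 1 h (0.27 ± 0.18), at 59.5 and 61.3 at 6 h and at 59.9 and 61.3 at 10 h, with log2 fold changes of 0.00 ± 0.18 at both later times (limma, adjusted p = 0.986 and 0.998). BDNF was below KCl by 0.68 ± 0.22 at 6 h (limma, adjusted p = 0.0137), and the difference at 10 h was -0.07 ± 0.22 (adjusted p = 0.838).

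The Btg3 values are uncertain for a reason of annotation. The last exon of 1 Btg3 transcript overlaps 695 bp of exons of Cxadr, a cell adhesion receptor gene on the opposite strand whose mean of 9551 normalised counts was far above the 69.2 of Btg3, and whether reads were counted by strand is not given in the sources used here. Cxadr rose by 0.88 ± 0.06 with KCl at 6 h (limma, adjusted p = 1.50e-10) and by 0.89 ± 0.06 at 10 h (adjusted p = 2.35e-10). With BDNF Cxadr was at 0.00 ± 0.06 at 6 h (adjusted p = 0.969) and 0.02 ± 0.06 at 10 h (adjusted p = 0.817). At 1 h, as a description, Cxadr was at 0.51 ± 0.06 with BDNF and 0.36 ± 0.06 with KCl. Both lay above every control, as did Btg3 at 1 h. The part of Cxadr in the Btg3 values was not tested. Tob2 shares 289 bp of exon with an antisense gene, Gm49476, that is not analysed here.

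**Figure D2:**
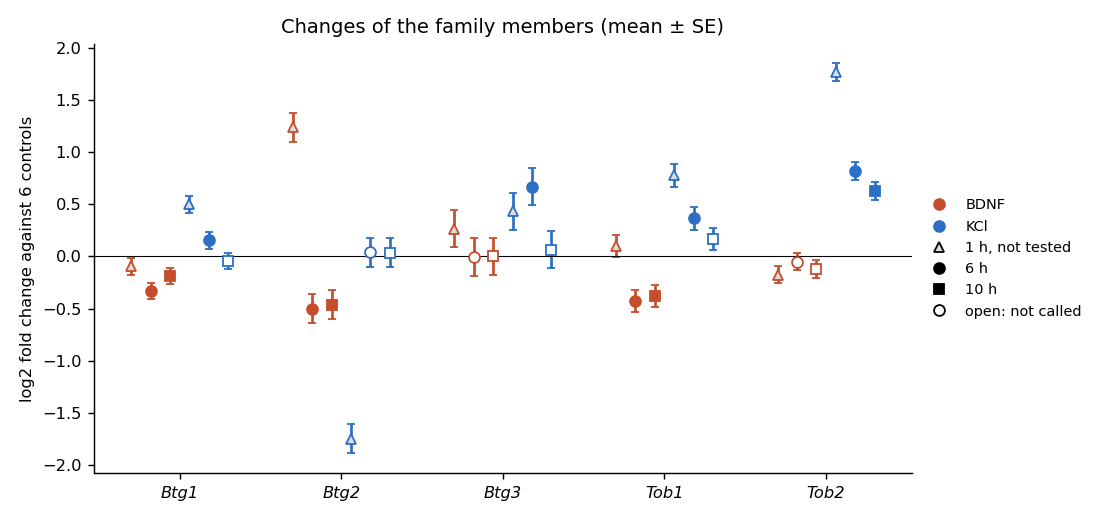
Log2 fold change against the 6 controls (y axis, mean ± SE, on the log2(normalised count + 1) scale) of each member (x axis) with BDNF (orange) and KCl (blue) at 1 h (triangles, not tested), 6 h (circles) and 10 h (squares). Filled symbols at 6 h and 10 h are called and open ones are not. At 6 h called members are below 0 with BDNF and above 0 with KCl.

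Counted over the family, all calls against controls at 6 h and 10 h were lower with BDNF and higher with KCl. At 6 h BDNF lowered 3 of 5 members (Btg1, Btg2 and Tob1), where 43.3% of all tested genes were called and 21.1% were called lower. At 10 h BDNF lowered the same 3 members, where 40.6% of genes were called and 19.5% lower. KCl raised 4 of 5 at 6 h (all but Btg2), where 66.5% of genes were called and 33.4% higher, and 1 of 5 at 10 h (Tob2), where 57.2% were called and 29.0% higher. In the direct comparison all 5 members were lower with BDNF than with KCl at 6 h, where 57.3% of genes were called and 27.8% were lower with BDNF, and 3 of 5 (Btg2, Tob1 and Tob2) at 10 h, where 45.0% were called and 21.8% lower. The difference between the stimuli did not pass the test for a change between 6 h and 10 h in any of the 5 members (limma contrast, adjusted p from 0.173 for Btg1 to 0.959 for Btg2; 7.66% of genes called; unadjusted p = 0.0220 for Btg1 and above 0.05 for the others). The number of members called at 6 h fell from 3 to 1 without BDNF library A and from 4 to 2 without KCl library B, and at 10 h with BDNF from 3 to 1 without either BDNF library. Over all genes the 2 RNA libraries of KCl at 6 h differed more than those of any other group (chi-square per degree of freedom 36.4, next highest 9.77).

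The make-up of the family changed with the stimulus, given here as a description because it includes the 1 h values. Summed per kilobase of exon, the 5 members came to 952 ± 59.7 normalised counts in controls (SD, n = 6). At 1 h the sum was close in the 2 stimuli, 1283 ± 5.33 with BDNF and 1271 ± 66.8 with KCl (n = 2 each), but not what it was made of. Btg2 made up 45.8% of the sum with BDNF and 5.82% with KCl, against 26.2% in controls. Tob1 made up 24.3% with BDNF and 39.4% with KCl, against 30.7% in controls. Tob2 made up 4.07% with BDNF and 15.97% with KCl, against 6.204% in controls. At 6 h the sum was 731 ± 42.9 with BDNF and 1139.8 ± 190.3 with KCl, and at 10 h 767 ± 26.0 and 1015 ± 7.79. The BDNF libraries at 6 h and 10 h, at 785 at the highest, were all below the lowest control at 866.

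**Figure D3:**
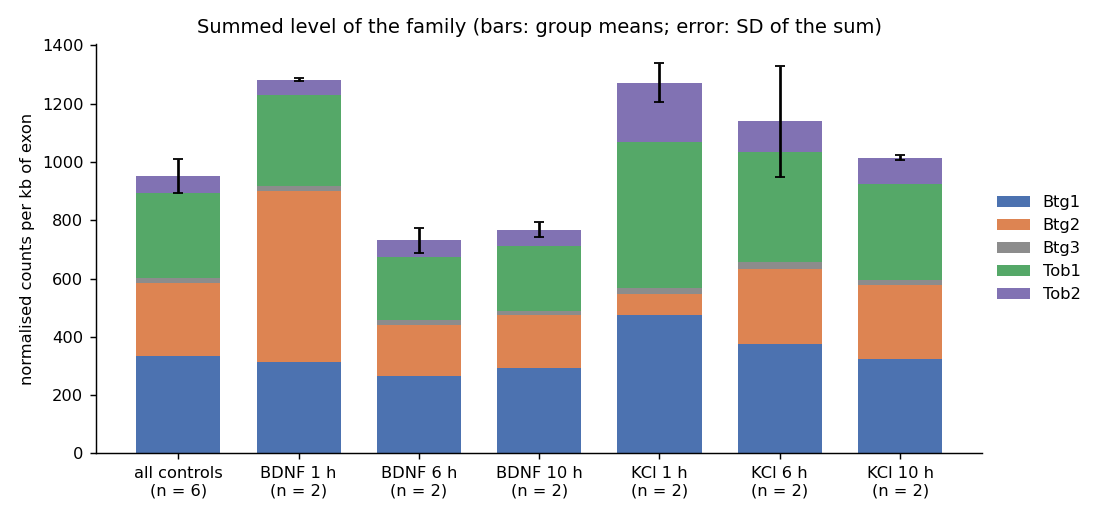
Summed level of the family in normalised counts per kilobase of exon (y axis, linear from 0) for the 6 controls and the 6 stimulated groups (x axis), stacked by member as group means. Error bars are the SD of the sum over libraries (n = 6 for controls, n = 2 otherwise). Btg2 takes the largest part at BDNF 1 h and a small part at KCl 1 h.

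Genes with the most similar pattern were ranked for each member by Pearson r of log2(normalised count + 1) over the 18 RNA libraries, which share their stimulus and are not independent points. For Btg2 these were March7 (r = 0.94), D5Ertd579e (0.93), Ugdh (0.92), Rcor1 (0.92) and Rbm12 (0.92), and at 1 h Rbm12 stood at 1.08 (BDNF) and -0.87 (KCl) on the log2 fold scale. The 1 h libraries that chose the family are part of this ranking, so it is not independent of that choice. With BDNF at 6 h and 10 h Btg2 was at -0.50 and -0.46. There March7 was at -0.14 and -0.11, D5Ertd579e at 0.02 and -0.04, Ugdh at -0.31 and -0.19, Rcor1 at -0.01 and 0.05 and Rbm12 at -0.07 and -0.29. For Btg1 they included Arl4c (0.92), Dusp16 (0.91), Pnrc1 (0.91) and Syt4 (0.91). For Tob1 they were Srd5a1 (0.94), Cdkn1b (0.92), the cyclin-dependent kinase inhibitor p27, Phlpp1 (0.92), Zc3h12c (0.92) and Picalm (0.92). Cdkn1b had log2 fold changes of 0.85, 0.65 and 0.34 with KCl at 1, 6 and 10 h and of 0.03, -0.35 and -0.22 with BDNF. For Tob2 they were Gm6085 (0.97), Alkbh5 (0.96), the mRNA m6A demethylase, Gla (0.95), Fbxo33 (0.95) and Nop53 (0.95). For Btg3 the values were lower, with Sarnp (0.84), a gene listed without a name, H2afz (0.84), Jag1 (0.83) and Amd1 (0.82).

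The enzyme complex that the family recruits was read from the same libraries. All 11 listed CCR4-NOT subunits were tested. With BDNF 4 were higher and 1 lower at 1 h (40.4% of all genes called). At 6 h 2 were lower, Cnot6 and Cnot7, and at 10 h 2 were lower, Cnot2 and Cnot6 (43.3% and 40.6% of all genes called). With KCl 2 were higher and 5 lower at 1 h (54.7% of all genes called), 6 higher and 4 lower at 6 h (66.5% of all genes called), and 1 higher and 4 lower at 10 h (57.2%). KCl called more of all genes than BDNF at each time. Medians over the 11 subunits lay between -0.14 and 0.15 in the 6 comparisons, against medians of all tested genes within 0.01 of 0. BDNF against KCl at 1 h called 7 of 11, 6 of them higher with BDNF, with 42.8% of all genes called.

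The 4 catalytic subunits did not move as a block. Cnot7 and Cnot8, the deadenylases that BTG and TOB proteins bind, rose with KCl at 6 h by 0.39 ± 0.07 (limma, adjusted p = 4.35e-05) and 0.43 ± 0.09 (adjusted p = 0.000169). The Cnot7 libraries were at 2649 and 3064 against 2108 to 2260.5 in controls, and the Cnot8 libraries at 839.6 and 1059 against 641 to 769. Over all genes the KCl libraries of 6 h differed more from each other than those of any other group. With KCl at 1 h Cnot7 was called higher (0.20 ± 0.07, limma adjusted p = 0.01685) and Cnot8 was not called (adjusted p = 0.206). At 10 h neither was called (limma, adjusted p = 0.986 for Cnot7 and 0.545 for Cnot8). The second pair of nucleases, Cnot6 and Cnot6l, fell with KCl. Cnot6 fell by 0.71 ± 0.07 at 1 h (limma, adjusted p = 2.39e-08), from 2633 to 3110 in controls to 1634 and 1942, by 0.16 ± 0.07 at 6 h (adjusted p = 0.05004) and by 0.28 ± 0.07 at 10 h (adjusted p = 0.00196). Cnot6l fell by 0.39 ± 0.10 at 1 h (limma, adjusted p = 0.00401), 0.38 ± 0.10 at 6 h (adjusted p = 0.00364) and 0.36 ± 0.10 at 10 h (adjusted p = 0.00626). The Cnot6l libraries of KCl at 1 h stood apart, at 547 and 842 against 826 to 979 in controls, so 1 lay within the control range. With BDNF Cnot6l rose by 0.35 ± 0.10 at 1 h (limma, adjusted p = 0.0123), and Cnot6 fell by 0.37 ± 0.07 at 6 h (adjusted p = 0.000284) and 0.21 ± 0.07 at 10 h (adjusted p = 0.0254). Cnot7 fell by 0.16 ± 0.07 with BDNF at 6 h (limma, adjusted p = 0.0676), and BDNF was below KCl there by 0.55 ± 0.08 (adjusted p = 1.13e-05).

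Cnot3, a regulatory subunit, turned direction with time under KCl. It fell by 0.29 ± 0.08 at 1 h (limma, adjusted p = 0.00617), then rose by 0.70 ± 0.08 at 6 h (adjusted p = 1.92e-07) and 0.55 ± 0.08 at 10 h (adjusted p = 1.08e-05). The fall at 1 h was shared with BDNF, at -0.39 ± 0.08 (limma, adjusted p = 0.000778), and the stimuli did not differ there by a called amount (adjusted p = 0.463). With BDNF Cnot3 was not called at 6 h (0.00 ± 0.08, adjusted p = 0.976) or 10 h (-0.03 ± 0.08, adjusted p = 0.781). Its KCl libraries were at 697 and 782 at 6 h, above the 439 to 471 of the controls.

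**Figure D4:**
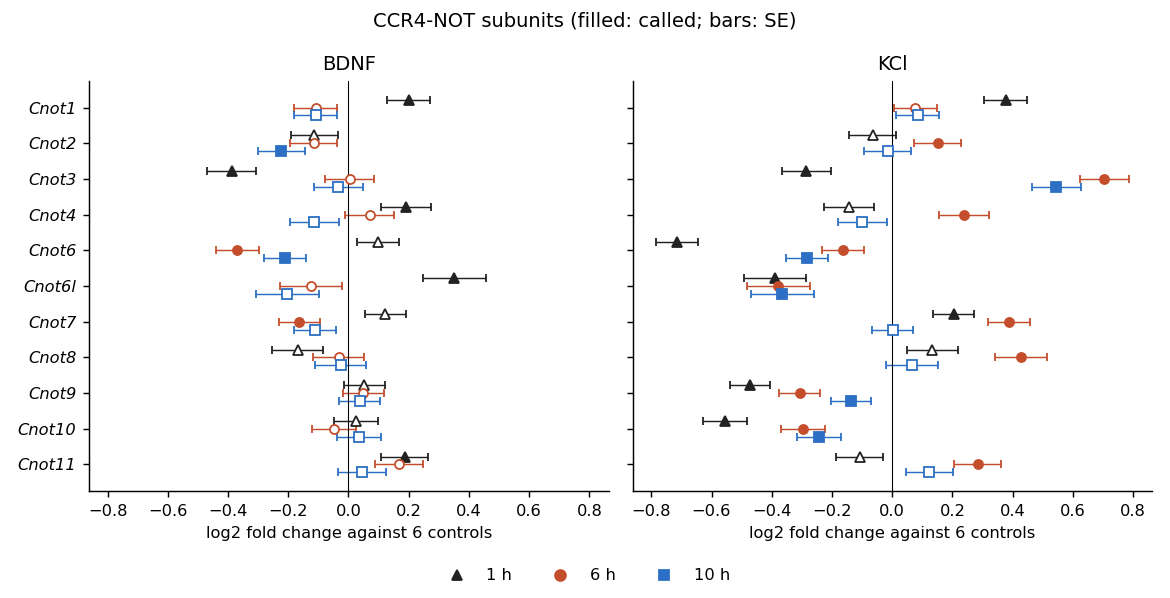
Log2 fold change against the 6 controls (x axis, ± SE) of the 11 CCR4-NOT subunits (y axis) with BDNF (left) and KCl (right) at 1 h (black triangles), 6 h (orange circles) and 10 h (blue squares). Filled symbols are called. With KCl, Cnot6, Cnot6l, Cnot9 and Cnot10 lie below 0 at all 3 times and are called at each.

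Of 6 further poly(A) factors, 2, 3 and 3 were called with BDNF and 4, 6 and 4 with KCl at 1, 6 and 10 h, beside 40.4%, 43.3% and 40.6% of all genes with BDNF and 54.7%, 66.5% and 57.2% with KCl. Parn, a poly(A)-specific ribonuclease outside the complex, fell with KCl by 1.32 ± 0.12 at 6 h (limma, adjusted p = 3.19e-09), to 112 and 125 normalised counts against 269 to 347 in controls, and by 0.87 ± 0.12 at 10 h (adjusted p = 2.61e-06). With BDNF at 6 h Parn was at -0.03 ± 0.12 (limma, adjusted p = 0.883), and the 2 stimuli differed there by 1.295 ± 0.14 (adjusted p = 1.58e-07). Pabpc1, the cytoplasmic poly(A)-binding protein, rose with KCl by 0.59 ± 0.06 at 1 h (limma, adjusted p = 1.61e-08) and 0.47 ± 0.06 at 6 h (adjusted p = 2.37e-07). Pabpc1 also rose with BDNF, by 0.32 ± 0.06 at 1 h (limma, adjusted p = 0.000128) and 0.14 ± 0.06 at 10 h (adjusted p = 0.0553), and was not called at 6 h (adjusted p = 0.116).

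Of 8 listed binding partners 6 were tested; Hoxb9 was below the minimum and Prmt1 is not analysed here. With BDNF 4, 4 and 3 were called at 1, 6 and 10 h, and with KCl 2, 3 and 3, the KCl counts being below the 54.7%, 66.5% and 57.2% of all genes called and the BDNF counts standing beside 40.4%, 43.3% and 40.6%. Smad9, a BMP pathway transcription factor, fell with BDNF by 0.94 ± 0.21 at 1 h (limma, adjusted p = 0.00155), from 24.0 to 37.2 normalised counts in controls to 16.03 and 16.7. Smad5 fell at 1 h with both stimuli, by 0.52 ± 0.06 with KCl (limma, adjusted p = 2.13e-07) and by 0.26 ± 0.06 with BDNF (adjusted p = 0.00166).

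Of 8 genes of the p53 axis and cyclins, 5, 5 and 4 were called with BDNF, beside 40.4%, 43.3% and 40.6% of all genes, and 3, 5 and 2 with KCl, beside 54.7%, 66.5% and 57.2%. Cdkn1a, the p53 target and kinase inhibitor p21, rose with both stimuli at all 3 times, by 2.77 ± 0.13, 2.34 ± 0.13 and 1.54 ± 0.13 with BDNF (limma, adjusted p = 1.10e-11, 2.36e-10 and 8.23e-08) and by 0.77 ± 0.13, 1.19 ± 0.13 and 0.79 ± 0.13 with KCl (adjusted p = 8.15e-05, 3.85e-07 and 6.95e-05). Its levels were 2877 and 2907 at BDNF 1 h and 705 and 745 at KCl 1 h, against 331 to 551 in controls, so Cdkn1a and Btg2 both rose with BDNF at 1 h but went opposite ways with KCl. Ccne1, cyclin E1, fell with KCl by 1.09 ± 0.14 at 6 h (limma, adjusted p = 6.94e-07).

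The cultures held other cells beside neurons, and in bulk RNA fewer cells of a type and less RNA per cell cannot be told apart. Summed over 6 neuronal markers the libraries were at 42902 to 47857 normalised counts in controls and at 39775 to 49226 over all groups. At 1 h the sum was at 48283 to 49226 with BDNF, above every control, and at 42778 to 47808 with KCl. Single markers in it moved more than the sum. Over all libraries Tubb3 reached down to 9795 against 15792 ± 866 in controls (SD), and Gad1 up to 5215 against 2687 ± 317. Astrocyte markers, 4 summed, were at 8835 to 11817 in controls, 8663 to 9082 with BDNF at 6 h and 10 h, and 7024 to 8300.2 with KCl at those times. Markers of cycling cells, 3 summed, were at 3619 to 6126 in controls, 3164 to 3462 with BDNF and 2473 to 2749 with KCl at 6 h and 10 h. Oligodendrocyte lineage markers, 4 summed, were at 3338 to 3575 in controls, 3103 to 3342 with BDNF and 3208 to 3662 with KCl at those times. At 1 h the oligodendrocyte lineage sum was at 3694 to 3964 with BDNF, above every control, and at 2365 to 3005 with KCl, below every control, so it moved in the same directions as Btg2 at that time. Astrocyte markers at 1 h were at 10670.2 to 11255 with BDNF and 10593 to 12628 with KCl, and markers of cycling cells at 4619.6 to 5052 and 4984 to 5734. Microglial markers, 3 summed, were at 62.85 to 84.06 in controls and 50.1 to 90.9 over all libraries. They were below every control with BDNF at 6 h (52.15 to 59.45) and with KCl at 6 h (52.11 to 54.41) and 10 h (50.1 to 53.78). Endothelial markers, 2 summed with Cldn5 below the minimum, were at 7.68 to 13.7 in controls, 4.52 to 16.7 with BDNF and 17.4 to 28.1 with KCl. The part of these cells in the family's changes was not tested.

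Chromatin accessibility near the members was read from 23 ATAC peaks with a midpoint within 50 kb of an annotated start, of 58177 peaks in all, and all 23 passed the minimum mean count of 10. Btg2 and Tob2 had 8 each, Tob1 3, and Btg1 and Btg3 2 each, and 6 were promoter peaks, which overlap a window of 1000 bp before and 100 bp after a start. Of the 23 peaks, 0 were called with BDNF at 1 h, 0 at 6 h and 1 at 10 h (all peaks 17.3%, 10.6% and 9.36%). With KCl 3 were called at 1 h, 0 at 6 h and 0 at 10 h (all peaks 8.34%, 7.49% and 7.87%). The direct comparison of the stimuli called 2, 1 and 1 of 23 (all peaks 14.9%, 3.63% and 1.99%). Where edgeR called 0, the peaks at an unadjusted p under 0.05 numbered 1 and 0 with BDNF at 1 h and 6 h and 3 and 1 with KCl at 6 h and 10 h. DESeq2 called 0, 0, 0 and 1 in these 4 comparisons, and limma 0, 0, 2 and 0.

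At the Btg2 promoter peak (chr1:134078843-134079541), which covers the CRE shown above, scaled counts were 151 to 189 in the 6 controls. They were 139.9 and 176 with BDNF at 1 h, when Btg2 RNA was highest, a log2 fold change of -0.08 ± 0.13 (edgeR, adjusted p = 0.790). With KCl at 1 h, when Btg2 RNA was lowest, the columns were at 187 and 237, 1 of them within the control range, and accessibility was called higher by 0.35 ± 0.13 (edgeR, adjusted p = 0.0867). BDNF was below KCl by 0.43 ± 0.16 (edgeR, adjusted p = 0.0630). The call with KCl was not made under TMM scaling (0.26, adjusted p = 0.213), DESeq2 size factors (0.25, adjusted p = 0.253), or without KCl column B (0.16, adjusted p = 0.769), nor by limma (0.34, adjusted p = 0.212) or against the controls of 1 h alone (0.32, adjusted p = 0.309). The direct difference was -0.24 without KCl column B (adjusted p = 0.605). Later values were not called, at -0.02 (BDNF 6 h), -0.05 (BDNF 10 h), 0.12 (KCl 6 h) and 0.13 (KCl 10 h).

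The Btg1 promoter peak (chr10:96616413-96617309) had scaled counts of 373 to 445 in controls, 400.0 and 368 with BDNF at 1 h and 499.9 and 482 with KCl at 1 h. Both KCl columns were above all controls, and accessibility rose by 0.31 ± 0.09 (edgeR, adjusted p = 0.0276), with BDNF below KCl by 0.35 ± 0.11 (adjusted p = 0.0264). This rise depended on the scaling, since it was 0.09 under TMM (adjusted p = 0.616) and 0.07 with DESeq2 size factors (adjusted p = 0.698). It also lost its call without either KCl column (0.28 and 0.33; adjusted p = 0.258 and 0.163). The direct difference was -0.25 under TMM scaling (adjusted p = 0.160).

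The other promoter peaks were not called in any comparison. At Tob2 (chr15:81858263-81858484), whose RNA rose most with KCl, the log2 fold change of accessibility with KCl at 1 h was -0.36 ± 0.41 (edgeR, adjusted p = 0.684), with an SE too wide to show a moderate change. At the main Tob1 peak (chr11:94210845-94211883) it was 0.08 ± 0.10 at 1 h (edgeR, adjusted p = 0.713) and 0.20 ± 0.11 at 6 h (adjusted p = 0.344). At the upstream Tob1 peak (chr11:94210160-94210495) it was 0.60 ± 0.23 at 6 h with KCl (edgeR, adjusted p = 0.107). At Btg3 (chr16:78376234-78377243) values lay between -0.06 and 0.21 in the 6 comparisons with controls.

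**Figure D5:**
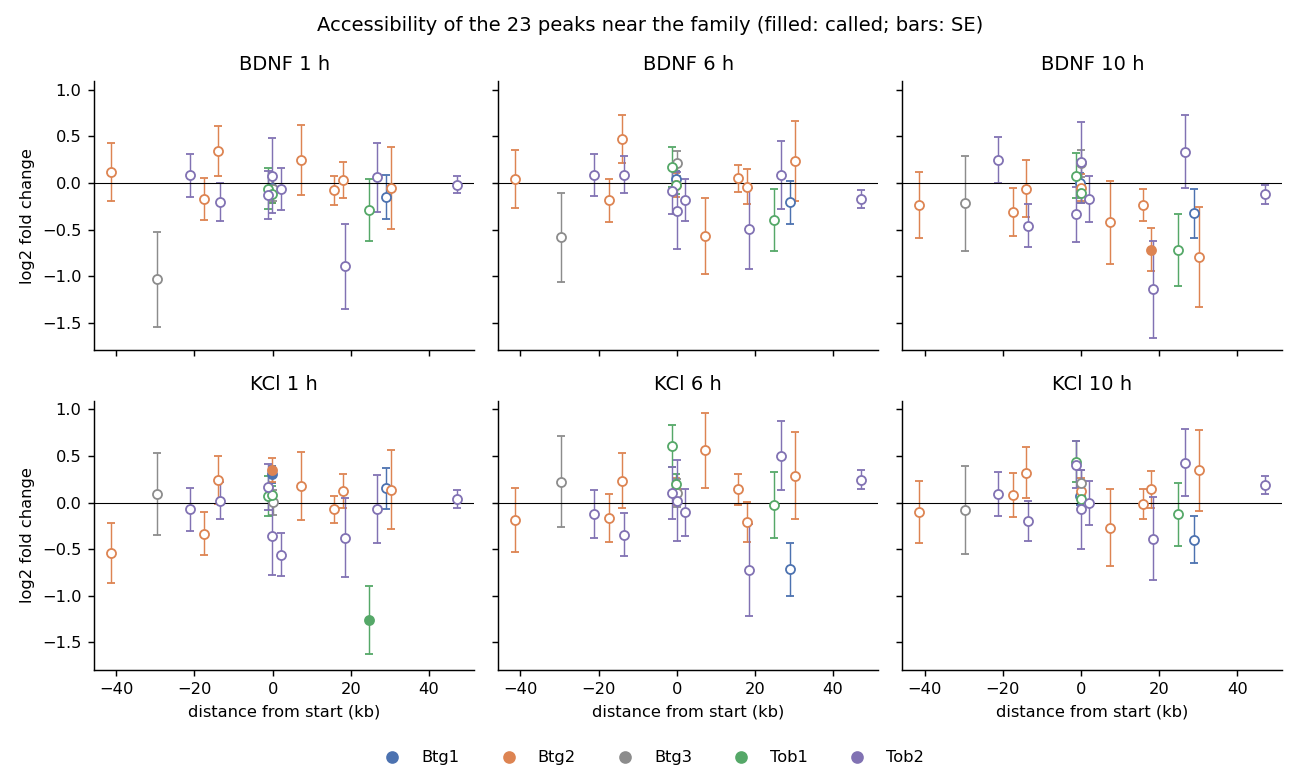
Log2 fold change of accessibility against the 6 controls (y axis, ± SE) of the 23 peaks by distance from the member's start (x axis, kb, positive downstream), coloured by member, with BDNF (top) and KCl (bottom) at 1, 6 and 10 h. Filled points are called. With BDNF 1 point is filled, at Btg2 18.005 kb downstream at 10 h.

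Among the peaks away from promoters whose nearest coding start is a member, 1 was called. It lies 18.005 kb downstream of the Btg2 start, between genes (chr1:134060889-134061341). Scaled counts were 69.6 to 105 in controls and 41.8 and 62.2 with BDNF at 10 h, below all controls, and the peak closed by 0.72 ± 0.23 on the log2 scale (edgeR, adjusted p = 0.0381). BDNF was below KCl there by 0.86 ± 0.27 (edgeR, adjusted p = 0.0958). At 1 h, when the RNA of Btg2 parted, BDNF columns at 85.1 and 93.8 and KCl columns at 93.8 and 96.2 were within the control range. Without BDNF column A the 10 h value was -0.48 (adjusted p = 0.497), and against the 10 h controls alone it was -0.58 (adjusted p = 0.303). The direct difference was -0.55 without KCl column B (adjusted p = 0.626). The central 300 bases of this peak (chr1:134060965-134061264, GRCm38.p6, plus strand) are shown because it is the one called distal peak of the family, with capitals as above.

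Btg2 downstream peak: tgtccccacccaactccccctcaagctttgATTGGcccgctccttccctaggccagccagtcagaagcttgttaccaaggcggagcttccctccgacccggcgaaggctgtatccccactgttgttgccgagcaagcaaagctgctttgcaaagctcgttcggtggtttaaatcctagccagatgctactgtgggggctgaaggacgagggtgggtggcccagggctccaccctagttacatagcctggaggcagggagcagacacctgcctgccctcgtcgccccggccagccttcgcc

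It held 1 CCAAT match, as did 35.5% of the central 300 bases of all 58177 peaks, and neither a CRE (0.985% of peaks), a CRE half-site (16.5%) nor AP-1 letters (16.4%). Further calls within 50 kb fell at peaks nearer to other genes. A peak in an exon of Wfikkn2, 24.8 kb from Tob1 (chr11:94236107-94236349), closed by 1.26 ± 0.36 with KCl at 1 h (edgeR, adjusted p = 0.0228), at 15.3 and 15.7 scaled counts against 22.4 to 54.3 in controls. A peak in an exon of Tef, 47.2 kb from Tob2 (chr15:81810586-81811726), was lower with BDNF than with KCl at 6 h by 0.41 ± 0.12 (edgeR, adjusted p = 0.0490). The first of these lost its call without either KCl column (adjusted p = 0.189 and 0.210) and the second without any 1 of the 4 stimulated columns (adjusted p from 0.143 to 0.279), and the second was -0.22 under TMM scaling (adjusted p = 0.364).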

How the data were processed

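RNA-seq and ATAC-seq were each measured in 18 samples, 2 in each of 9 groups of stimulus and time, taken from the sample labels. RNA reads had been aligned by the authors (TopHat2, mm10) and assigned to GENCODE M16 genes, by a program the sources used here do not name, and the deposited values are a signal, namely gene counts divided by DESeq2 size factors. In each of the 18 columns 100% of values came out as whole reads within 0.01, which gave depths of 8.51 to 36.7 M reads. For ATAC, the authors used Bowtie2 for alignment, MACS2 for peaks of each sample and DiffBind for reads over peaks found in at least 2 samples, and the deposited values are raw counts (1.24 to 6.24 M reads in peaks per library). The deposited tables of genes and peaks with the authors' own log2 fold changes, p-values and score columns were not used beyond gene names.

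The members, gene lists and tests were chosen with earlier results of these data known. RNA was tested with limma 3.58.1 (trend, robust) on log2(deposited value + 1) and ATAC with edgeR 4.0.16 (quasi-likelihood, LOESS offsets as in the study), in both with 7 levels (6 stimulated groups and the 6 controls as 1), a mean of at least 10 and two-sided Benjamini-Hochberg adjusted p below 0.1. This tested 16209 genes and 56383 peaks, and all adjusted p-values are over these. Stimulated groups have 2 libraries, so the spread is shared over all 18. Replicates of 1 group differed beyond sampling noise (chi-square per degree of freedom 2.33 to 36.4 for RNA and 2.04 to 2.58 for ATAC). The RNA value of 36.4 is that of KCl at 6 h, and the next highest is 9.77, of the controls of 1 h. Because the spread is shared, the SE of a KCl 6 h value does not show the wider spread of that pair. Scripts were tested on simulated data. ATAC scaled counts are counts divided by the LOESS offsets, and the SE of an edgeR value is its size divided by the root of F. Named partner genes are the 2 with the largest called change in each list, plus Cnot6, Cnot6l, Cnot7 and Cnot8. Named peaks are all promoter peaks and up to 3 called others per member. The likeness ranking used genes with a mean of at least 100, and a gene in it is not reported here. Gene models and starts are those of GENCODE M21, and promoter sequences are from RefSeq (GRCm38.p6), found for all 5 members. Column letters A and B carry no replicate number and for ATAC only name the order of columns. Alternatives were edgeR and DESeq2 1.42.0 on whole reads, other scalings, a pseudocount of 5, no filter, controls of the same time, adjusted p below 0.01, a replicate block and leaving out each library.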

Additional observations from a re-analysis of the deposited data

Results flagged for a closer look

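In 28 sets of 6 controls (5 members' RNA and 23 peaks) 1 control library stood far from the other 5 in 3 peaks, where chance flags about 1 set in 20, and in none of the members' RNA. At the peak 30.2 kb downstream of the Btg2 start the gap was 0.759 of the range of the controls, with a control of 10 h at 28.2 scaled counts and the others at 9.13 to 13.7. At the peak 15.8 kb downstream of the Btg2 start it was 0.656, with the other control of 10 h at 102 and the others at 151 to 177. At the Tef peak 47.2 kb from Tob2 it was 0.639, with that same control column at 332 and the others at 376 to 400.4. None of these 3 peaks was called against controls.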

How the results depend on the processing

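Among settings other than leaving out a library, 496 values kept direction and side of the threshold (or, for counts, stayed within 1.5 times), 29 counts or values moved by more and 38 no longer passed. At an adjusted p below 0.01 the members called were 0 with BDNF at 10 h (from 3) and 3 between stimuli at 6 h (from 5), partner genes called with BDNF were 7, 7 and 4 at 1, 6 and 10 h (from 16, 14 and 12), and peaks called were 0 with BDNF at 10 h, with KCl at 1 h and between stimuli at all 3 times. Against controls of the same time, partner genes called with BDNF at 1 h were 9, and peaks called were 0 with BDNF at 10 h and 1 with KCl at 1 h. With TMM scaling or DESeq2 size factors, peaks called were 1 with KCl at 1 h (from 3), 1 with KCl at 6 h (from 0), 1 between stimuli at 1 h (from 2) and 0 at 6 h (from 1), and with DESeq2 size factors 1 with KCl at 10 h (from 0). The DESeq2 test called 1 with KCl at 1 h and at 10 h and 0 between stimuli at all 3 times. limma called 2 with KCl at 6 h and 1 between stimuli at 1 h. Among all peaks called with KCl, the share with higher accessibility was 63.4%, 72.6% and 75.1% at 1, 6 and 10 h, against 53.4%, 58.2% and 54.6% with DESeq2 size factors, and between stimuli at 10 h it was 58.3% against 72.7% by the DESeq2 test.

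Leaving out 1 library at a time gave 1 to 3 members called with BDNF at 6 h and at 10 h, 2 to 4 with KCl at 6 h, 4 to 5 between stimuli at 6 h and 2 to 3 at 10 h. Peaks called ranged from 0 to 1 with BDNF at 6 h and 10 h, 0 to 3 with KCl at 1 h, 0 to 2 with KCl at 6 h, 0 to 2 between stimuli at 1 h, and 0 to 1 at 6 h and 10 h. Btg1 with KCl at 6 h ranged from -0.0055, without library B, to 0.3178, without library A. The cause of these changes was not tested. With the column letter as a replicate block, members called were 3, 3, 4 and 1 (BDNF and KCl at 6 h and 10 h) and 5 and 3 between stimuli, as without it, and no member's call changed. Deviations of A libraries from their group means, across genes, showed no common direction between groups (36 correlations from -0.315 to 0.418, median 0.0649). The letters were therefore not taken as pairs, and whether some of the groups shared a batch was not tested. ATAC columns carry no replicate number. Precision is limited by 2 libraries a group, by 40 to 159 reads of Btg3 and by the wide SE of thin peaks.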
